A study of Bos taurus with 8 samples.

Results

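NEDD4L and MARCHF3 encode E3 ubiquitin ligases, the enzymes that pick the protein to which ubiquitin is attached, and both act on proteins of membranes. They are 2 genes of the 25889 rows of a count table from cultured bovine endothelial cells, and they were taken by name because their transcripts were among those that rose most clearly after LIF in choroidal cells. That contrast is therefore a description here, with no test. In the table they are ENSBTAG00000005412 and ENSBTAG00000006797. The name NEDD4L rests on the best protein match of that gene, a mouse entry, and MARCHF3 (formerly MARCH3) on a bovine one. RNA-seq was done on bovine choroidal endothelial (BCE) cells, purchased cells used over a few passages, and on bovine aortic endothelial (BAE) cells of 1 purchased lot. Each cell type received LIF at 10 ng/ml or vehicle (albumin in PBS) for 6 h, with 2 libraries in each of 4 groups. From 3 h before treatment BCE cells were in assay medium with 10% bovine calf serum and BAE cells in medium with 1%, and until then BCE cells alone had been grown with bFGF and VEGF. Cell type, serum and growth factors therefore cannot be told apart.

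LIF is a cytokine of the IL-6 family that binds LIFR together with gp130 and activates JAK1 and STAT3. Ubiquitin attached to a receptor or channel at the cell surface marks it for uptake and for breakdown in lysosomes, so ligases of this kind set how long membrane proteins stay in place. NEDD4L is a HECT ligase: it carries a C2 domain that binds membranes and WW domains that grip short proline-rich motifs of its targets, and it is best known for removing the epithelial sodium channel and for the turnover of SMAD proteins in TGF-beta signaling. MARCHF3 is a membrane-spanning member of the MARCH family, whose proteins hold a RING-type finger. It sits on endosomes, and the receptors for IL-1 and IL-6, gp130 included, have been reported among its targets.

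Library totals ranged from 18600598 to 35269335 counts, and each gene had between 695 and 3275 counts in every library, so both passed the filter on low counts in all fits. Counting alone gives these counts an SD of 1.75% to 3.79%. Levels are given as CPM, which puts the counts of all libraries on 1 scale with TMM factors, and tests are those of edgeR with adjustment over all genes. None of the 30 marker genes listed for endothelial and other cell types (0 of 30) has a name that is paired with an identifier here, so the label of the cells was not checked by them. Of the genes that have a name, PCDH12, a cadherin of endothelial cells, lay between 25.5 and 37.7 CPM in BAE libraries and between 85.6 and 119 CPM in BCE libraries. SELP, the P-selectin of endothelial cells and platelets, lay between 219 and 405 CPM in BAE and between 137 and 253 CPM in BCE libraries. THSD1, a thrombospondin-domain protein of endothelial cells, lay between 167 and 201 CPM in BAE and between 54.8 and 73.0 CPM in BCE libraries. These genes were picked for this after their values were seen.

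In vehicle-treated BAE cells NEDD4L stood at 59.4 and 53.4 CPM in the 2 libraries, and with LIF at 66.4 and 68.9 CPM. In BCE cells it stood at 82.5 and 77.0 CPM with vehicle and at 127 and 131 CPM with LIF. Both LIF-treated libraries lay above both vehicle-treated ones in each cell type, and the lowest BCE library lay above the highest BAE library. Both LIF-treated libraries stand higher for 26% of all genes tested in BAE cells and for 20.1% in BCE cells. Libraries of the cell types do not overlap for 77.3% of genes with vehicle and 80.9% with LIF. The group means were 56.4 ± 4.26, 67.6 ± 1.73, 79.8 ± 3.91 and 129 ± 2.77 CPM (SD, n = 2 each) for BAE with vehicle, BAE with LIF, BCE with vehicle and BCE with LIF, in rising order. Fewer cells with the transcript and less of it in each cell cannot be told apart in such bulk RNA. The closest libraries of neighbouring groups were 7.01, 8.14 and 44.3 CPM apart. LIF-treated BCE cells thus stood well apart at the top, while LIF left BAE cells below the vehicle level of BCE cells.

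MARCHF3 followed another order. It stood at 32.2 and 35.9 CPM in vehicle-treated BAE cells and at 99.2 and 102 CPM in LIF-treated BAE cells. In BCE cells it stood at 31.1 and 28.8 CPM with vehicle and at 57.0 and 53.8 CPM with LIF. The vehicle-treated groups of both cell types lay side by side, and the LIF-treated BAE libraries were the highest. The means rose from 29.97 ± 1.62 CPM in vehicle-treated BCE cells to 34.0 ± 2.56 in vehicle-treated BAE, 55.4 ± 2.28 in LIF-treated BCE and 100.5 ± 1.84 in LIF-treated BAE cells (SD, n = 2 each). The closest libraries of the 2 vehicle-treated groups were only 1.12 CPM apart, and the later steps had gaps of 17.9 and 42.2 CPM. Without TMM, scaled by the plain library totals alone, the vehicle-treated groups overlapped, with 31.4 and 35.0 in BAE and 32.1 and 29.8 in BCE libraries.

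**Figure D1:**
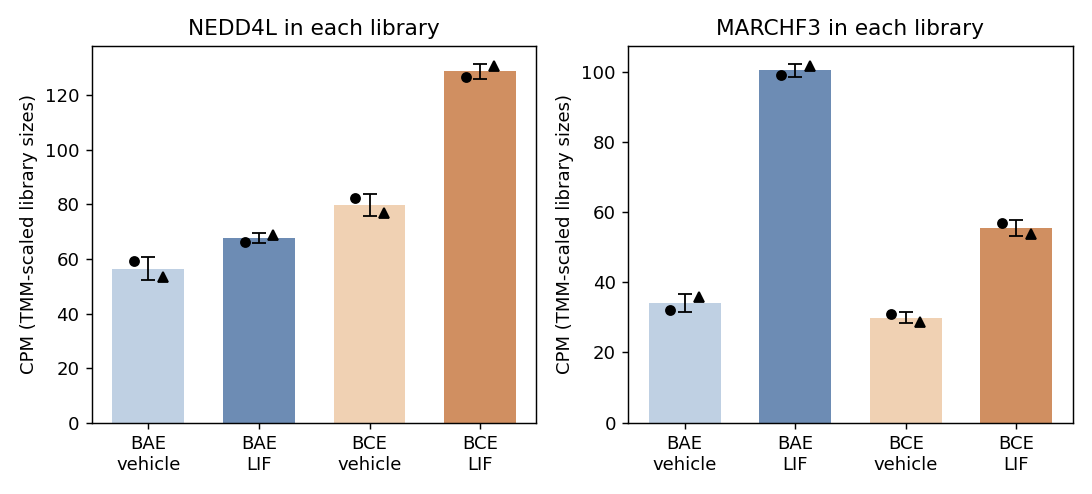
Level of NEDD4L (left) and MARCHF3 (right) in CPM with TMM-scaled library sizes, by cell type and treatment. Bars are means of 2 libraries, error bars are the SD, circles are replicate 1 and triangles replicate 2. NEDD4L is highest in LIF-treated BCE cells (127 and 131 CPM) and MARCHF3 in LIF-treated BAE cells (99.2 and 102 CPM).

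The rule that names these genes uses BCE libraries only, though it was written with results of these data known. In BAE cells both rose after LIF. MARCHF3 rose 3.03-fold, a log2 fold change of 1.60 (SE 0.0620, 95% interval 1.47 to 1.73, adjusted p = 1.56e-11 in the quasi-likelihood test of edgeR). NEDD4L rose 1.22-fold, a log2 fold change of 0.29 (SE 0.0632, 95% interval 0.16 to 0.43, adjusted p = 0.003 from the same edgeR test). In this comparison 13.6% of the 13034 genes tested rose past the threshold of 0.05 and 22.2% changed in either direction, with a median log2 fold change of -0.0039 over all genes and a median size of 0.14. MARCHF3 ranked 65th from the top by fold change and 19th by p. NEDD4L ranked 1631st from the top by fold change and 1284th by p, among the many genes with small rises. Its call depended on 1 library: without LIF-treated BAE replicate 2 its log2 fold change was 0.26 and its adjusted p 0.0625 in edgeR.

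**Figure D2:**
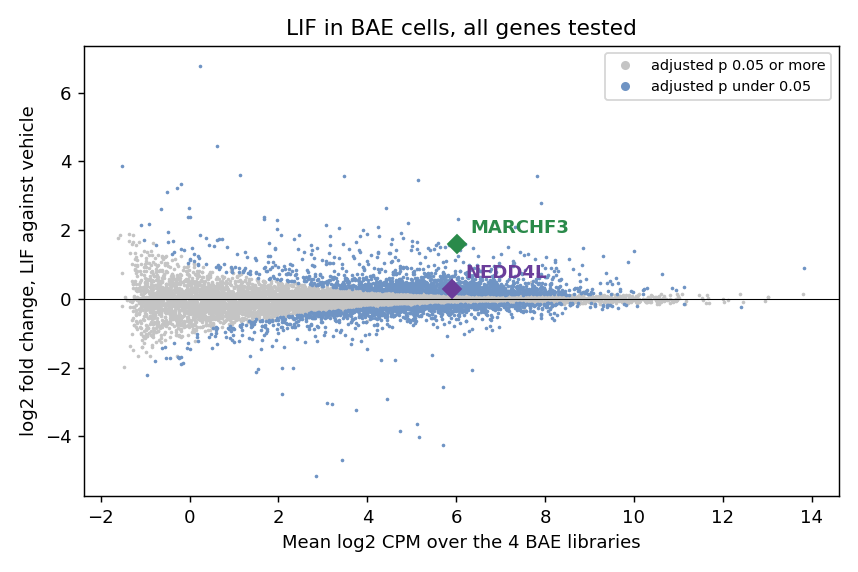
Log2 fold change after LIF in BAE cells against mean log2 CPM over the 4 BAE libraries, with 1 point for each of the 13034 genes tested. Blue points passed an adjusted p of 0.05 and grey points did not. MARCHF3 (1.60) lies near the upper edge of the cloud and NEDD4L (0.29) just above its centre.

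In BCE cells, the contrast by which they were chosen, the order of the genes by size was the same but the gap was narrow. MARCHF3 was 1.85-fold higher with LIF (log2 fold change 0.89, SE 0.0747) and NEDD4L 1.61-fold higher (log2 fold change 0.69, SE 0.0576). Among all genes tested in this contrast 0.692% rose past the threshold, a share from which nothing is read about genes chosen there. Ordered by fold change, MARCHF3 was 17th and NEDD4L 30th of 90 such rises. The count of rises moved with each BCE library: it was 728 without vehicle-treated replicate 1, 282 without vehicle-treated replicate 2, and 48 and 46 without LIF-treated replicates 1 and 2. SBNO2 (log2 fold change 0.90) and BAMBI (0.87) stood next to MARCHF3, and MT2 (0.71) and HIF1A (0.68) next to NEDD4L.

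Side by side, the responses of the 2 genes leaned to different cell types. NEDD4L gained 49.0 CPM in BCE cells and 11.2 CPM in BAE cells, whereas MARCHF3 gained 25.4 CPM in BCE cells and 66.4 CPM in BAE cells. On the log2 scale, in a fit of all 8 libraries, the LIF effect in BCE cells minus that in BAE cells was 0.43 (SE 0.0863) for NEDD4L and -0.68 (SE 0.0974) for MARCHF3. No p is given for these differences, since the BCE effect that chose the genes enters each of them.

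**Figure D3:**
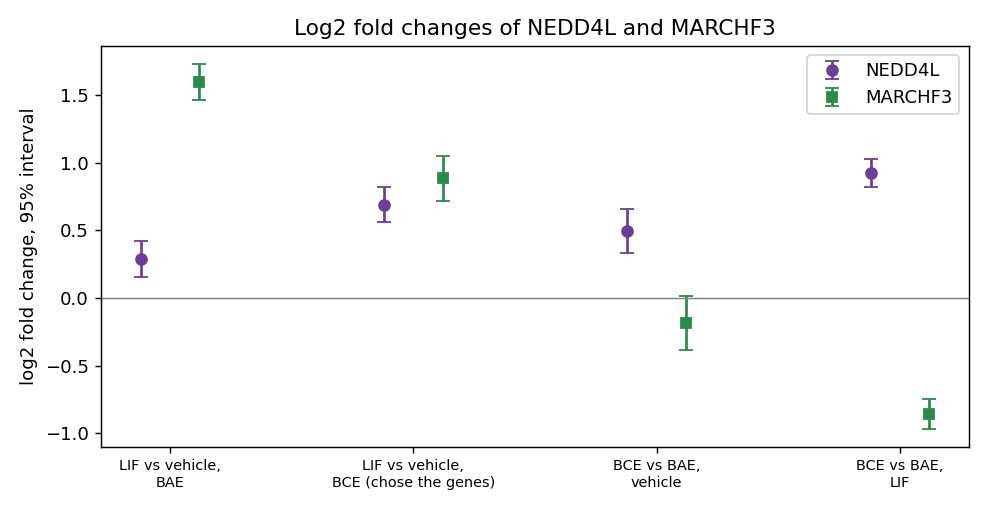
Log2 fold changes of NEDD4L (circles) and MARCHF3 (squares) in 4 comparisons, with 95% intervals from edgeR. The genes were chosen on the second comparison, and both comparisons of BCE with BAE cells share libraries with it. Only the intervals for LIF in BAE cells stand for a test, and the others are a description. For BCE minus BAE cells the values of NEDD4L are 0.49 with vehicle and 0.93 with LIF, and those of MARCHF3 are -0.18 and -0.86.

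Between the cell types without LIF, NEDD4L was 1.41-fold higher in BCE cells, a log2 fold change of 0.49 (SE 0.0751, 95% interval 0.33 to 0.66). MARCHF3 had a log2 fold change of -0.18 (SE 0.0921). Its 95% interval, from -0.39 to 0.02, reached from a clearly lower level in BCE cells to an equal one. At baseline 53.8% of the 13426 genes tested passed the threshold, a share from which nothing is read about these genes. The log2 fold change of MARCHF3 stayed at -0.18 in one edgeR fit of all 8 libraries, which also changes the genes kept and the scaling. It was -0.25 without vehicle-treated BCE replicate 1. This value shrank to -0.10 with library totals in place of TMM, and to -0.12 without vehicle-treated BAE replicate 2 or without vehicle-treated BCE replicate 2. The vehicle-treated BCE libraries also served in the contrast that chose the genes, where a low value in them favours a gene's choice. These baseline values are therefore a description with no p.

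With LIF in both cell types the values of the 2 genes lay in opposite directions. The LIF-treated BCE libraries took part in the choice of the genes, and a high value in them favours it, so these values are a description with no p. NEDD4L had a level in BCE cells 1.90-fold that in BAE cells, with a log2 fold change of 0.93 (SE 0.05). MARCHF3 had a log2 fold change of -0.86 (SE 0.0535), a level in BCE cells of 0.552 times that in BAE cells. Between the LIF-treated cell types 63.9% of the 13217 genes tested passed the threshold, a share from which nothing is read about these genes.

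The balance of the 2 transcripts can be read inside each library, where no scaling between libraries enters. The ratio of NEDD4L counts to MARCHF3 counts also carries the unequal lengths of the transcripts, so it is compared only between libraries. It was 2.65 and 2.67 in vehicle-treated BCE libraries and 2.22 and 2.43 in LIF-treated ones. In BAE cells it was 1.84 and 1.49 with vehicle and 0.670 and 0.677 with LIF. The ratio was highest in BCE cells without LIF and lowest in BAE cells with LIF. Both BCE groups took part in the choice of the genes, and other pairs of genes were not examined, so this order is a description. The mean log2 ratio fell by 1.30 with LIF in BAE cells and by 0.19 in BCE cells. With 2 libraries a group an exact permutation test cannot go below p = 0.333, and none was made of it.

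**Figure D4:**
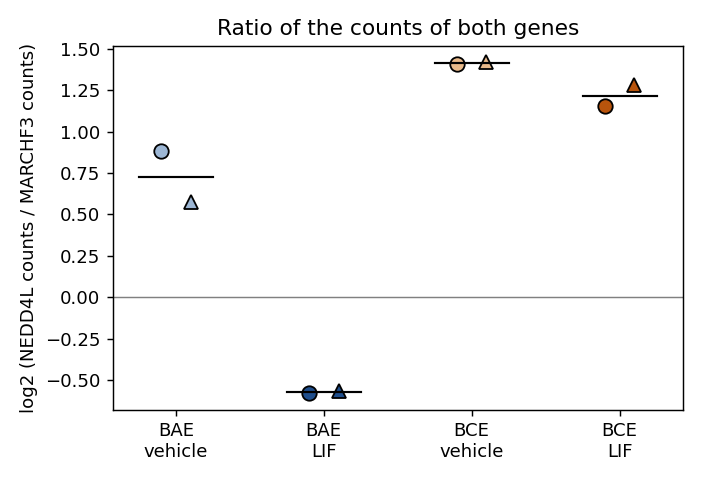
Log2 ratio of NEDD4L counts to MARCHF3 counts in each library, by cell type and treatment. Circles are replicate 1, triangles replicate 2, and short lines the means of 2 libraries. The LIF-treated BAE libraries lie below 0, at -0.58 and -0.56, and the other 6 libraries above it.

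Names are paired with identifiers for 111 genes, all listed by the study after LIF in BCE cells, and these give a setting for both ligases. In BAE cells 107 of them were tested, 80 rose and 20 fell, with a median log2 fold change of 0.66. MARCHF3 was 14th from the top of these 107 and NEDD4L 78th. In BCE cells they were 12th and 24th from the top of all 111. Of the 84 named genes tested in both cell types with a positive log2 fold change in BCE cells, 66 had a larger value in BAE cells, as MARCHF3 had, and 18 a smaller one, as NEDD4L had. Over all genes tested, LIF effects were also larger in BAE cells, with a median size of 0.14 against 0.085 in BCE cells. No such count was made over all genes, so nothing is read from it about the 2 ligases.

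**Figure D5:**
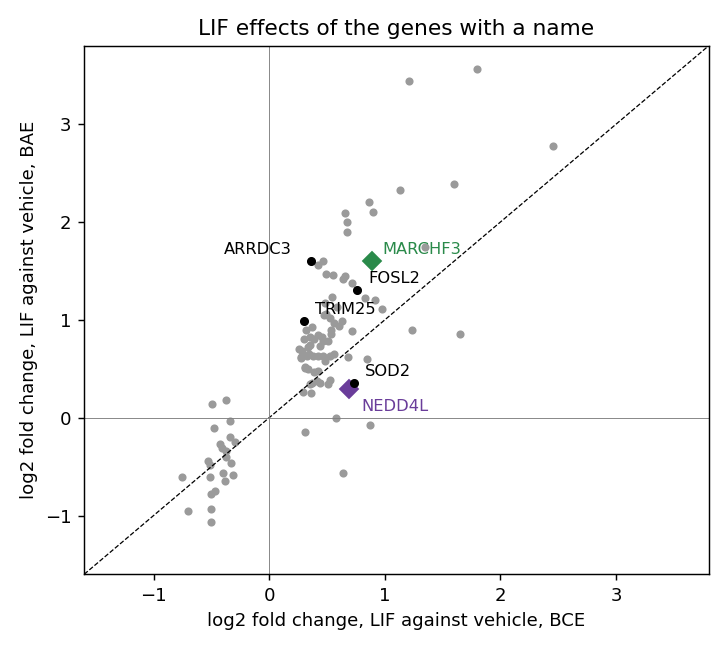
Log2 fold change after LIF in BAE cells (vertical) against that in BCE cells (horizontal) for the 107 named genes tested in both, with equal values on the dashed line. MARCHF3 lies above the line (1.60 against 0.89) and NEDD4L below it (0.29 against 0.69). Named beside them are ARRDC3, TRIM25, FOSL2 and SOD2.

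The wider ubiquitin machinery could hardly be followed. Of 162 genes in 14 lists (HECT ligases and the NEDD4 family, MARCH and other membrane RING ligases, ubiquitin with its E1 and E2 enzymes, adaptors, targets, endosomal sorting and cell markers), 4 have a name paired with an identifier, and 2 of these are NEDD4L and MARCHF3 themselves. The lists therefore say nothing about either family, and the other members of both were not analysed here. The remaining pair is ARRDC3 and OSMR, and both rose in BAE cells.

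ARRDC3 is an arrestin-like adaptor whose PPxY motifs bind the WW domains of NEDD4-type ligases and bring them to membrane receptors; it was the 1 gene of the 17 in the list of adaptors and regulators that could be followed. It stood at 37.4 and 39.1 CPM in vehicle-treated and at 123 and 104 CPM in LIF-treated BAE libraries, a log2 fold change of 1.60 (SE 0.0724, adjusted p = 8.61e-11 in the quasi-likelihood test of edgeR). In BCE libraries it stood at 67.8 and 63.8 CPM with vehicle and at 84.4 and 84.3 CPM with LIF, a log2 fold change of 0.36 (SE 0.0597). Like NEDD4L it was higher in BCE than in BAE cells without LIF (log2 fold change 0.78). With LIF the log2 fold change of BCE against BAE cells was -0.43, and its LIF-treated BAE libraries were the highest of the 8. Both values are given without a p, since this gene too was listed from the BCE libraries.

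OSMR, the receptor chain that pairs with gp130 for oncostatin M, was the 1 gene of 8 in the list of receptors around MARCHF3. It rose in BAE cells from 24.95 ± 0.974 to 56.2 ± 4.53 CPM (SD, n = 2), with a log2 fold change of 1.205 (SE 0.0767, adjusted p = 5.72e-09 in the quasi-likelihood test of edgeR). In BCE cells its means were 22.7 ± 1.13 CPM with vehicle and 42.9 ± 1.55 CPM with LIF (SD, n = 2). Its order of groups was that of MARCHF3. How many genes share this order was not counted, so nothing is read from it. TRIM25, a RING ligase best known for its part in RIG-I signaling, was outside the lists and was picked after its values were seen. It is therefore described with no p. TRIM25 was 1.98-fold higher with LIF in BAE cells (log2 fold change 0.98, SE 0.0536). Its means there were 54.5 ± 1.17 CPM with vehicle and 106 ± 3.502 CPM with LIF (SD, n = 2). In BCE cells it was 1.23-fold higher with LIF.

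Likeness to other genes was measured as the Pearson correlation of log2 CPM over the 8 libraries, among 13646 genes kept by the filter. The libraries share their cell types and depths, so these values are a description. NEDD4L and MARCHF3 had a correlation of 0.11 with each other. Closest to NEDD4L was SOD2, the superoxide dismutase of mitochondria (0.991), and the next 4 genes, with correlations from 0.970 to 0.990, have no name here. SOD2 had means of 15.2 and 19.2 CPM in BAE cells and of 25.1 and 42.1 CPM in BCE cells, with vehicle and with LIF, which is the same order of groups as for NEDD4L. Closest to MARCHF3 were CSRNP1, a nuclear protein (0.996), and FOSL2, a subunit of the AP-1 transcription factor (0.996), followed by an unnamed gene, by SBNO2, a transcriptional coregulator (0.989), and by another unnamed gene. FOSL2 had means of 119 and 286 CPM in BAE cells and of 109.5 and 186 CPM in BCE cells, with vehicle and with LIF. As with MARCHF3, its vehicle-treated groups were close (log2 fold change -0.12) and LIF-treated BAE cells had its highest level. A like order of groups follows from choosing genes by this correlation, for SOD2 as for FOSL2, and is no further result. SOD2, CSRNP1, FOSL2 and SBNO2 were all listed by the study after LIF in BCE cells.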

How the data were processed

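RNA was sequenced from BCE and BAE cells. Per the paper's methods and the labels, the authors mapped read pairs onto the bovine assembly UMD 3.1 with TopHat2 (2.0.12, index by Bowtie2 2.2.3) and deposited raw counts per gene from HTSeq (0.6.1). The annotation release, the strand setting and the treatment of multi-mapped reads are not given in the sources used here, so reads of overlapping or antisense genes cannot be told apart. The authors' own BCE comparison (DESeq 1.18.0) holds mean normalized counts, fold changes, p-values and other text on protein matches, and only the names in it were used, with those of a supplementary list. The table deposited for BAE cells holds the same bytes and was not used. RefSeq genes (ARS-UCD2.0) could not be joined to these identifiers, and no sequence or coordinate is given.

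Counts were analysed in R (4.3.3) with edgeR (4.0.16): filterByExpr (minimum count 10, total 15), TMM, a quasi-likelihood test, and p-values adjusted by Benjamini-Hochberg over all genes, threshold 0.05. Each comparison used its own 4 libraries without a block, and the difference of the LIF effects used all 8. SEs were derived from the F statistic. The paper's methods call the libraries biological replicates, and those of a group differed by more than counting noise. DESeq2 (1.42.0) was an alternative. The tests were also run on simulated counts drawn with equal noise in all groups, whereas replicate noise here differed between groups. No outcome is given, so nothing is read from it. The genes, lists and rules were chosen with earlier results of these data known. Named genes were the 2 members, members of the lists (past the threshold, the 4 largest changes in each direction), and the 5 genes most correlated with each member. Genes named outside this rule are marked as such or stand for a rank.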

Additional observations from a re-analysis of the deposited data

How the results depend on the processing

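The alternatives were DESeq2's size factors, DESeq2's test, no filter, at least 10 counts in every library, a replicate block, a single fit of all 8 libraries, and fits that each omit 1 library, with library totals in place of TMM added after seeing the data. Every log2 fold change of NEDD4L and MARCHF3 kept its direction under all of these. With a library left out, the lone library of an arm is assumed to vary like the others.

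With 1 fit of all 8 libraries the baseline difference of MARCHF3 stayed at -0.18. It shrank to -0.10 with library totals. Leaving out 1 library in turn gave values from -0.27 to -0.12. For the rise of NEDD4L in BAE cells the same range was 0.22 to 0.37, with edgeR's adjusted p between 2.93e-05 and 0.0625, and the call was lost once. The difference of the LIF effects ranged from 0.35 to 0.50 for NEDD4L and from -0.76 to -0.60 for MARCHF3. For ARRDC3 and OSMR no calls are given in BCE cells, since both were listed from the BCE libraries.

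Replicate numbers are those of the sample titles. Libraries titled replicate 2 share a number in the deposited column names too, whereas those titled replicate 1 have unlike numbers there. The differences between replicates 1 and 2 had a correlation over genes of -0.02 between the BAE groups and 0.10 between the BCE groups. These values cannot settle whether the title numbers pair the libraries. With the number as a block, NEDD4L rose by 0.29 and MARCHF3 by 1.60 in BAE cells and no call of either gene changed, while the count of genes called for LIF in BCE cells went from 120 to 226. It was 437 without a filter and 217 in the fit of all 8 libraries. Leaving out 1 library moved it more: to 1423 and 477 without vehicle-treated BCE replicates 1 and 2, and to 56 and 55 without LIF-treated BCE replicates 1 and 2. With DESeq2's test 1920 genes were called in BAE cells against 2889, and without a filter 889 differed between the LIF effects against 502. With library totals, 44.3% of the calls in BAE cells were upward against 61.4%, 59.0% against 48.7% at baseline and 60.8% against 49.6% with LIF. Counting gives an SD of at most 3.79% per library, and 2 libraries per group limit the precision.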
